A study of Homo sapiens with 18 samples.

Results

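Gene expression was followed for 10 genes that differed strongly between a HAP1 line deleted for SARS2 and its parental line: ASTN1, SYNDIG1, PTN, GRIA2, PDGFRA, MMP2, DHRS2, BMP2, HCLS1 and MOBP. They are 10 of 59251 genes counted and 10 of 21615 genes tested, and all 10 passed the filter on low counts. They were chosen by name for their large difference between the lines when both were grown with doxycycline, so that difference is described here and not tested. The question was which of these differences were also present without doxycycline and at each of days 3, 6 and 9.

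HAP1 is a near-haploid human line derived from a chronic myeloid leukaemia line and grows as adherent cells. SARS2 encodes the seryl-transfer RNA synthetase of mitochondria. The series comprised 6 groups of 3 libraries. The unmodified parental line was grown with 15 ng/mL doxycycline or was labelled as without it, with no number of days given. The other line carried a deletion of SARS2 together with a SARS2 transgene with a single FLAG tag (∆SARS2+SARS2-1xFLAG, the deleted line below), and was grown with the same dose of doxycycline or for 3, 6 or 9 days after its removal. All cells had been kept in doxycycline until its removal. Not given in the sources used here were the kind of deletion, the promoter of the transgene and whether the deleted line is 1 clone. Every difference between the lines therefore goes with the deletion, the transgene and the derivation of the line, which cannot be told apart. Separate cultures are not stated for the replicates, so p-values measure the spread between these libraries, which may be technical.

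The 10 genes belong to different pathways. GRIA2 encodes a subunit of AMPA receptors, the glutamate-gated channels of fast excitatory synapses that limit calcium entry when they contain it, and SYNDIG1 encodes a membrane protein that binds AMPA receptors. PDGFRA and BMP2 act in growth factor signalling, as a receptor tyrosine kinase for platelet-derived growth factors and as a secreted ligand whose receptors phosphorylate SMAD proteins. Several of the genes are known mainly from brain, glia, connective tissue or blood cells.

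The sequences just upstream of 4 of the start sites are printed. ASTN1 and PTN had the widest differences among the higher genes without doxycycline, DHRS2 had the widest among the lower genes with it, and HCLS1 shares a motif with PTN. RefSeq windows on GRCh38.p14, 250 bases before to 50 after an annotated start, matched 7 of the 10 genes (ASTN1, PTN, GRIA2, PDGFRA, DHRS2, HCLS1 and MOBP). The 250 upstream bases are given 5′ to 3′ on the gene's strand, at chr1:177164713-177164962 on the minus strand for ASTN1, chr7:137343734-137343983 on the minus strand for PTN, chr14:23629865-23630114 on the plus strand for DHRS2 and chr3:121660904-121661153 on the minus strand for HCLS1. Capitals mark each CG pair, the letters TATAAA in DHRS2 and the letters TGACTCA in HCLS1.
ASTN1: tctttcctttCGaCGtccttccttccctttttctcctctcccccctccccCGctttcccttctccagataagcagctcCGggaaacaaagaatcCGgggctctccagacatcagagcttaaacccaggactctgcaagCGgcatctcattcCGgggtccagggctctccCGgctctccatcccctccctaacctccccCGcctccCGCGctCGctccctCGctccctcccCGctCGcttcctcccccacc
PTN: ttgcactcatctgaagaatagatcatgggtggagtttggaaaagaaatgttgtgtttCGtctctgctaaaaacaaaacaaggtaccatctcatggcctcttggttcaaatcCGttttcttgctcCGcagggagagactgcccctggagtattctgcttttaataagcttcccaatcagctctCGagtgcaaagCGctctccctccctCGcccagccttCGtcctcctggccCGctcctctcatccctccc
DHRS2: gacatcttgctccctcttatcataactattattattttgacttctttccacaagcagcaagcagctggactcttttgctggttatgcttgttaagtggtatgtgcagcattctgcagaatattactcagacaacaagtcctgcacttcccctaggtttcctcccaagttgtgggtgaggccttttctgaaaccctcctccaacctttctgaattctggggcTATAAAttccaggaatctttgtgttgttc
HCLS1: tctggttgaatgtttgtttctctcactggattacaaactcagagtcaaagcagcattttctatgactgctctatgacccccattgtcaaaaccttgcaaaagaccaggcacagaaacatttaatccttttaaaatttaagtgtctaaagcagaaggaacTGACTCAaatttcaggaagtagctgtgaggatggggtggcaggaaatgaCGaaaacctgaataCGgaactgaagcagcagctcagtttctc

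The full 300-base window held 20 CG pairs at ASTN1, 10 at PTN, 6 at HCLS1, 3 at MOBP and 0 at DHRS2, against a median of 14 over all 35116 windows. A window without any CG, as at DHRS2, made up 3.96% of all windows. PDGFRA had 2 windows with 8 and 32 CG pairs, and GRIA2 had 3 with 7, 13 and 44. TATAAA, searched on both strands, occurred only in the DHRS2 window among the members, starting 29 bases before the annotated start, and in 11.5% of all windows. GGGCGG, on both strands, occurred in 2 GRIA2 windows, in the CG-rich window of PDGFRA and in 44.95% of all windows. TGACTCA, on both strands, occurred at HCLS1, at PTN among the 50 bases after its start, and in 4.95% of all windows. Such matches describe letters and say nothing of binding.

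Library totals lay between 66850705 and 111123481 counts, with 25062 to 27382 genes detected. Levels are given as CPM, read counts relative to the scaled library size, and differences as log2 fold changes (log2FC) ± standard error (SE). On average the targeted gene was not lower in the deleted line once doxycycline was labelled as removed. Its SARS2 level was 24.2 ± 0.923 CPM (mean ± SD of 3 libraries) on the drug and 31.6 ± 0.986, 24.7 ± 1.3 and 41.8 ± 7.16 on days 3, 6 and 9. In the parental line SARS2 was at 44.3 ± 1.67 CPM with and 39.9 ± 3.03 without doxycycline. Reads of the transgene and of the deleted locus cannot be separated, so groups are given as labelled, and each direction over days rests on those labels. Summed neuronal markers, which were mostly TUBB3, set 2 groups apart: 48.1 to 58.6 CPM in the parental libraries without doxycycline and 64.6 to 68.9 at day 6, against 109 to 127 CPM in the other 4 groups.

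With doxycycline in both lines, the contrast that chose the genes, 6 genes were higher in the deleted line, from 3.49-fold for PDGFRA to 80.2-fold for ASTN1. The other 4 were lower there, from 4.82-fold for MOBP to 19.7-fold for DHRS2. By absolute log2FC ASTN1 took place 56 of 21615 genes and PDGFRA took place 649, and the other 8 lay between them. The 3 libraries of each line did not overlap for any of the 10, which was true of 44.9% of all genes, and 9 of the 10 differed at least 4-fold, against 2.46% of all genes. Nothing is read from these counts, since the genes were chosen on them.

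Without doxycycline, 9 of the 10 differences were present at all 3 days, in the same direction, past the test and with no overlap between the libraries of the lines. The 6 higher genes (ASTN1, SYNDIG1, PTN, GRIA2, PDGFRA and MMP2) and 3 of the 4 lower genes (DHRS2, BMP2 and HCLS1) did so, and MOBP did not. Over all genes tested, 15.6% passed in one direction at all 3 days, 6.58% higher and 9.01% lower, and 18.8% showed no overlap in one direction at all 3 days. With a minimum of 2-fold at each day 7 of the 10 remained, against 3.25% of all genes (1.17% higher, 2.08% lower); GRIA2 and PDGFRA were under 2-fold at day 9. At single days, 9 members passed at day 3, 10 at day 6 and 10 at day 9, and the shares of all genes were 48.8%, 33.8% and 60.3%, so a call at a single day was common. By direction, 6 were higher and 3 lower at day 3 (23.2% and 25.6% of all genes), 6 and 4 at day 6 (15.6% and 18.2%), and 7 and 3 at day 9 (28.8% and 31.5%). The libraries of the lines did not overlap for 9 members at day 3, 10 at day 6 and 9 at day 9, against 59.4%, 44.1% and 58.8% of all genes. The 3 comparisons share the 3 parental libraries without doxycycline and are not independent of each other.

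**Figure D1:**
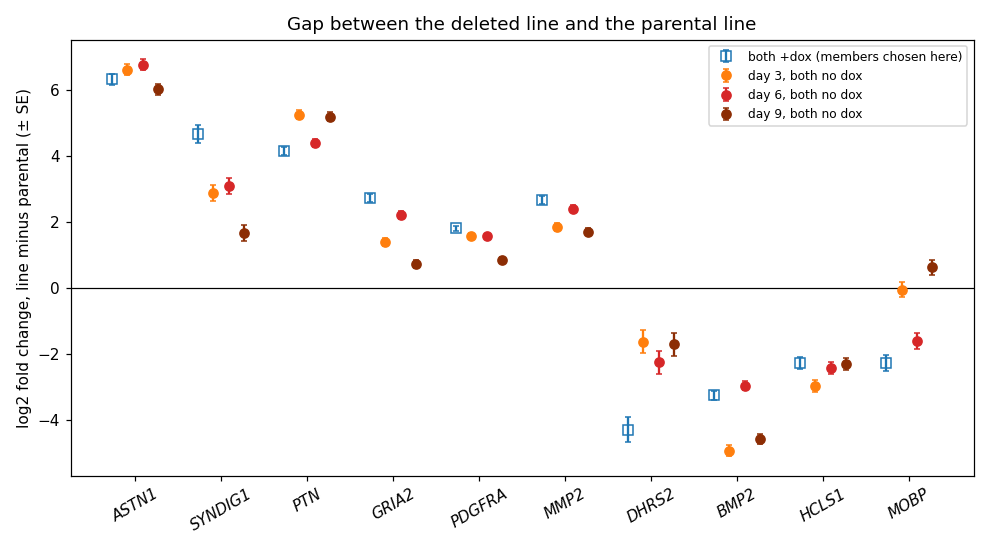
Log2 fold change of the deleted line against the parental line for each of the 10 genes, with both lines on doxycycline (the contrast that chose the genes, not tested) and without doxycycline at days 3, 6 and 9; bars are ± 1 SE. For 9 genes all points lie on the same side of 0; MOBP lies at −2.27 on the drug and at −0.05, −1.61 and 0.63 on days 3, 6 and 9.

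ASTN1 (GRCh38, chr1:176857321-177164712, minus strand), which encodes a neuronal membrane protein for the migration of young neurons along glial fibres, had the widest difference. ASTN1 stood at 0.304, 0.208 and 0.151 CPM in the 3 parental libraries without doxycycline and at 0.246, 0.253 and 0.294 CPM in the 3 with it. ASTN1 in the deleted line was at 22.6, 21.01 and 20.03 CPM on the drug, 21.3, 21.5 and 22.9 on day 3, 25.5, 21.9 and 25.2 on day 6 and 12.9, 14.4 and 15.96 on day 9. All 12 libraries of the deleted line lay far above all 6 of the parental line, whose counts for ASTN1 were 14 to 28 per library. The log2FC was 6.62 ± 0.16 on day 3 (adjusted p = 1.1e-15), 6.77 ± 0.16 on day 6 (adjusted p = 8.7e-16) and 6.02 ± 0.16 on day 9 (adjusted p = 3.4e-15), which is 98.6-fold, 109-fold and 64.8-fold. Day 9 was the lowest group of the deleted line for ASTN1 and did not overlap the others, while day 3, day 6 and doxycycline overlapped. Removal of the trend of fold change with genomic span left day 9 against day 6 at −0.16 (adjusted p = 0.21) in place of −0.75. The related ASTN2 was lower at each day (−0.59 ± 0.13, −0.45 ± 0.13 and −0.82 ± 0.13 at days 3, 6 and 9, adjusted p = 0.00075, 0.0092 and 1.6e-05), but its day 9 value was −0.08 (adjusted p = 0.70) with the span trend removed.

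SYNDIG1 (chr20:24469629-24666616, plus strand) had the widest range of line differences among the higher genes. SYNDIG1 stood at 0.597, 0.733 and 0.647 CPM in the 3 parental libraries without doxycycline and at 0.177, 0.214 and 0.419 CPM in the 3 with it. SYNDIG1 in the deleted line was at 7.499, 7.93 and 4.78 CPM on the drug, 5.31, 4.07 and 5.07 on day 3, 4.597, 6.83 and 5.43 on day 6 and 2.301, 2.02 and 1.94 on day 9. The parental libraries without doxycycline were all above those with it (1.31 ± 0.29, not tested), and day 9 was below all other libraries of the deleted line. The line difference was 2.87 ± 0.24 on day 3 (adjusted p = 3e-08), 3.09 ± 0.24 on day 6 (adjusted p = 2.8e-08) and 1.66 ± 0.24 on day 9 (adjusted p = 8.1e-06), beside 4.66 ± 0.27 with doxycycline. Within the deleted line SYNDIG1 fell from day 6 to day 9 (−1.43 ± 0.22, adjusted p = 1.6e-05).

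GRIA2 (chr4:157220120-157366075, plus strand) moved over days by more than its line difference at day 9. GRIA2 stood at 19.2, 16.9 and 22.2 CPM in the 3 parental libraries without doxycycline and at 11.2, 12.8 and 11.9 CPM in the 3 with it. GRIA2 in the deleted line was at 75.7, 85.8 and 77.3 CPM on the drug, 56.7, 48.4 and 48.7 on day 3, 84.97, 90.1 and 96.2 on day 6 and 31.1, 25.9 and 39.3 on day 9. Day 6 was highest and day 9 lowest among the days, and the 3 days did not overlap. The line difference went from 1.40 ± 0.12 on day 3 (adjusted p = 4.9e-08) to 2.22 ± 0.13 on day 6 (adjusted p = 5.4e-10) and 0.73 ± 0.12 on day 9 (adjusted p = 4.1e-05). GRIA2 rose from day 3 to day 6 (0.82 ± 0.12, adjusted p = 2.7e-05) and fell from day 6 to day 9 (−1.49 ± 0.12, adjusted p = 7.2e-09). The pore subunits that pair with it were nearly silent: GRIA1 and GRIA4 averaged at most 0.00655 and 0.0144 CPM in any group and were not tested. GRIA3 averaged 0.431 CPM in the parental line without doxycycline and 0.182 at day 9 (0.15 ± 0.28, −0.26 ± 0.28 and −1.24 ± 0.30 at days 3, 6 and 9, adjusted p = 0.68, 0.51 and 0.0015).

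Of 10 neuronal markers ELAVL4 and DCX were below 0.1 CPM in every library. Of 8 tested, 4 passed higher and 2 lower at day 3, 3 and 1 at day 6, and 4 and 3 at day 9. The part of these markers in the ASTN1, SYNDIG1 and GRIA2 differences was not tested.

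PTN (chr7:137227341-137343733, minus strand) encodes pleiotrophin, a secreted heparin-binding growth factor of brain and bone. PTN stood at 0.489, 0.481 and 0.636 CPM in the 3 parental libraries without doxycycline and at 0.787, 0.992 and 1.01 CPM in the 3 with it. PTN in the deleted line was at 16.9, 14.97 and 17.3 CPM on the drug, 19.6, 20.9 and 21.1 on day 3, 11.7, 11.4 and 10.9 on day 6 and 19.7, 21.1 and 17.9 on day 9. Day 6 was the lowest group of the deleted line and did not overlap the others, and every library of the deleted line was more than 10 times its highest parental library. The difference was 5.26 ± 0.13 on day 3 (adjusted p = 1.1e-15), 4.39 ± 0.13 on day 6 (adjusted p = 2.3e-14) and 5.19 ± 0.13 on day 9 (adjusted p = 2.6e-15). PTN fell from day 3 to day 6 (−0.86 ± 0.10, adjusted p = 2.8e-06) and rose from day 6 to day 9 (0.80 ± 0.10, adjusted p = 1.8e-06). Its relative MDK, midkine, was also higher at each day (0.93 ± 0.23, 0.93 ± 0.23 and 1.38 ± 0.23 at days 3, 6 and 9, adjusted p = 0.0025, 0.004 and 4.2e-05), at 295 CPM in the parental line and 766 at day 9. Parental replicates 1, 2 and 3 without doxycycline had 366, 389.6 and 129 CPM, so that the third was far below the others, and the parental line with doxycycline averaged 445 CPM. PTPRZ1, the receptor phosphatase that both bind, averaged at most 0.116 CPM in any group (−0.72 ± 0.78, −0.25 ± 0.75 and −0.36 ± 0.75 at days 3, 6 and 9, adjusted p = 0.47, 0.83 and 0.69).

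**Figure D2:**
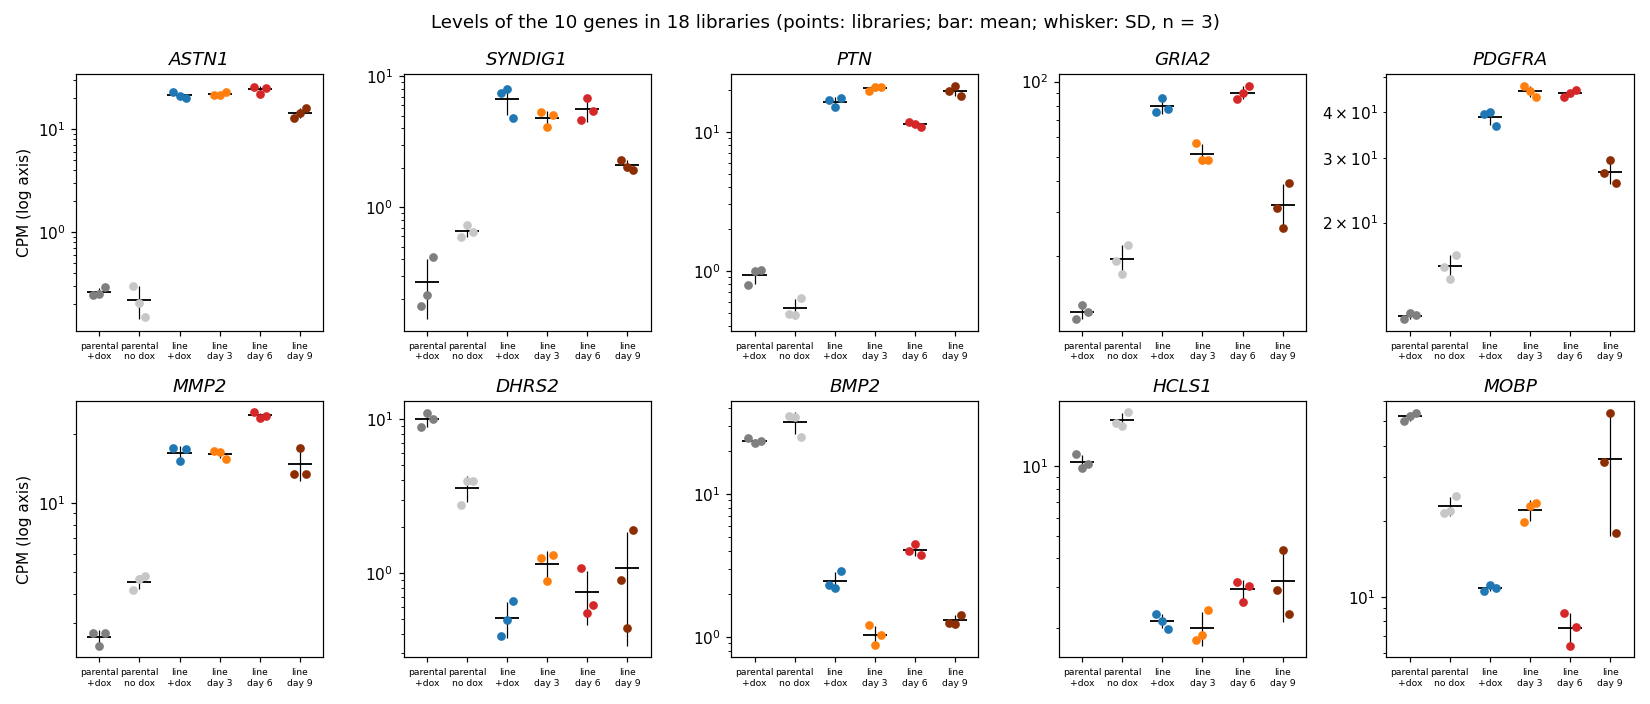
CPM of each of the 10 genes in every library on a log axis, by group; points are libraries (3 per group) and bars are group means. ASTN1, SYNDIG1, PTN, GRIA2, PDGFRA and MMP2 sit higher in all 4 groups of the deleted line than in both parental groups, DHRS2, BMP2 and HCLS1 sit lower, and MOBP crosses, with 17.995 to 53.8 CPM at day 9 against 21.5 to 25.2 in the parental line without doxycycline.

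PDGFRA (chr4:54229293-54298245, plus strand) encodes the receptor PDGF receptor alpha of mesenchymal cells. PDGFRA stood at 15.2, 14.1 and 16.3 CPM in the 3 parental libraries without doxycycline and at 10.9, 11.3 and 11.2 CPM in the 3 with it. PDGFRA in the deleted line was at 39.5, 40.2 and 36.7 CPM on the drug, 47.3, 45.7 and 44.1 on day 3, 44.1, 45.1 and 46.1 on day 6 and 27.3, 29.7 and 25.6 on day 9. Days 3 and 6 overlapped, and day 9 lay below both and above every parental library. The difference was 1.59 ± 0.07 on day 3 (adjusted p = 1.6e-11), 1.57 ± 0.07 on day 6 (adjusted p = 4.1e-11) and 0.86 ± 0.07 on day 9 (adjusted p = 1e-08), 1.81-fold at the last. Its ligands did not move as one. PDGFA gave −0.55 ± 0.14, 0.41 ± 0.14 and −0.04 ± 0.14 at days 3, 6 and 9 (adjusted p = 0.003, 0.024 and 0.8). PDGFC gave 0.76 ± 0.16, 0.47 ± 0.16 and 0.34 ± 0.16 at days 3, 6 and 9 (adjusted p = 0.00055, 0.024 and 0.072). The day 6 calls of both were lost without day 6 replicate 3 (0.34 and 0.47) and in 3 and 2 other fits without 1 library. The related receptor gene PDGFRB averaged at most 0.375 CPM in any group (0.62 ± 0.61, 0.65 ± 0.61 and −0.34 ± 0.63 at days 3, 6 and 9, adjusted p = 0.42, 0.44 and 0.66).

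MMP2 (chr16:55478830-55506691, plus strand) encodes gelatinase A, a secreted protease of basement membrane collagen. MMP2 stood at 4.17, 4.65 and 4.79 CPM in the 3 parental libraries without doxycycline and at 2.72, 2.38 and 2.71 CPM in the 3 with it. MMP2 in the deleted line was at 17.2, 15.2 and 17.1 CPM on the drug, 16.8, 16.7 and 15.5 on day 3, 24.8, 23.4 and 23.8 on day 6 and 13.4, 17.4 and 13.4 on day 9. Day 6 was above all other groups without overlap, and the other 3 groups of the deleted line overlapped. The difference was 1.85 ± 0.11 on day 3 (adjusted p = 2.8e-10), 2.40 ± 0.11 on day 6 (adjusted p = 2.3e-11) and 1.70 ± 0.11 on day 9 (adjusted p = 2.4e-10). MMP14, the membrane protease that activates the MMP2 proenzyme, was lower at each day (−1.81 ± 0.18, −1.13 ± 0.17 and −2.04 ± 0.18 at days 3, 6 and 9, adjusted p = 1.8e-07, 6e-05 and 1.5e-08). TIMP2, the inhibitor that takes part in this activation, gave −0.05 ± 0.06, 0.18 ± 0.06 and 0.22 ± 0.06 at days 3, 6 and 9 (adjusted p = 0.54, 0.026 and 0.0042), and its day 6 call was lost without parental no doxycycline replicate 1 or 2 or day 6 replicate 2 (0.15 to 0.17). Without doxycycline MMP2 was thus higher and MMP14 lower than in the parental line. The parental level of MMP14 was 5.81 CPM without doxycycline and 2.15 with it, where the deleted line had 1.84.

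Summed mesenchymal markers lay above the parental range in every library of the deleted line. The 12 listed genes, mostly VIM, summed to 612 to 644 CPM in the parental libraries without doxycycline and 657 to 668 with it. The deleted line had 815 to 889.5 CPM on the drug, 879.5 to 903 on day 3, 836 to 853 on day 6 and 936 to 1227 on day 9. Of 10 tested, 5 passed higher and 2 lower at day 3, 6 and 1 at day 6, and 5 and 2 at day 9, while the fibroblast collagens COL1A2 and COL3A1 stayed under 0.1 CPM in every library. Of 10 epithelial markers CDH1, KRT19 and GRHL2 were under 0.1 CPM everywhere, and of 7 tested 1 passed higher and 4 lower at day 3, 3 and 0 at day 6, and 1 and 4 at day 9. The part of these markers in the PDGFRA and MMP2 differences was not tested. In bulk RNA, fewer cells with a gene on and less RNA per cell cannot be told apart.

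BMP2 (chr20:6767686-6780246, plus strand), the bone morphogenetic protein ligand, had the widest difference among the lower genes without doxycycline. BMP2 stood at 35.04, 34.5 and 25.1 CPM in the 3 parental libraries without doxycycline and at 24.4, 22.7 and 23.5 CPM in the 3 with it. BMP2 in the deleted line was at 2.31, 2.19 and 2.89 CPM on the drug, 1.205, 0.872 and 1.03 on day 3, 3.97, 4.44 and 3.71 on day 6 and 1.26, 1.22 and 1.43 on day 9. All 12 libraries of the deleted line lay below all 6 of the parental line, and within it day 6 was highest and day 3 lowest, with no overlap among the 4 groups. The log2FC was −4.93 ± 0.16 on day 3 (adjusted p = 8.3e-14), −2.96 ± 0.14 on day 6 (adjusted p = 4.1e-11) and −4.59 ± 0.16 on day 9 (adjusted p = 1.9e-13), so BMP2 was 30.5-fold, 7.80-fold and 24.1-fold lower. BMP2 rose from day 3 to day 6 (1.97 ± 0.15, adjusted p = 3.3e-08) and fell again to day 9 (−1.63 ± 0.15, adjusted p = 2.6e-08). BMP7 was lower with the same order of days (−3.98 ± 0.17, −1.19 ± 0.14 and −3.14 ± 0.16 at days 3, 6 and 9, adjusted p = 5.5e-12, 5.4e-06 and 1.8e-11). The ligand gene BMP4 gave −0.08 ± 0.10, −0.28 ± 0.10 and −0.31 ± 0.10 at days 3, 6 and 9 (adjusted p = 0.52, 0.027 and 0.0086), a day 6 call lost in 4 fits without 1 library (−0.23 to −0.28). The receptor gene BMPR2 gave −0.04 ± 0.06, 0.25 ± 0.06 and −0.34 ± 0.06 at days 3, 6 and 9 (adjusted p = 0.61, 0.0033 and 8.4e-05). ID1, a target of BMP signalling through SMADs, was higher at each day (1.01 ± 0.17, 0.82 ± 0.17 and 1.61 ± 0.18 at days 3, 6 and 9, adjusted p = 9.4e-05, 0.0012 and 2.2e-07).

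DHRS2 (chr14:23630115-23645639, plus strand) encodes a short-chain dehydrogenase/reductase. DHRS2 stood at 2.78, 3.98 and 3.94 CPM in the 3 parental libraries without doxycycline and at 8.87, 11.02 and 10.1 CPM in the 3 with it. DHRS2 in the deleted line was at 0.392, 0.492 and 0.655 CPM on the drug, 1.25, 0.883 and 1.31 on day 3, 1.08, 0.549 and 0.619 on day 6 and 0.907, 0.442 and 1.91 on day 9. Both parental groups lay above all libraries of the deleted line, and the parental group without doxycycline was below the one with it (−1.49 ± 0.32, not tested). The difference was −1.63 ± 0.34 on day 3 (adjusted p = 0.00065), −2.26 ± 0.36 on day 6 (adjusted p = 8e-05) and −1.71 ± 0.34 on day 9 (adjusted p = 0.00027), smaller than −4.30 ± 0.39 with doxycycline. Without day 9 replicate 3, the highest of that group, the day 9 value was −2.41. DHRS2 passed no test between days. The nearby paralog DHRS4, whose reads could be shared with its copies DHRS4L1 and DHRS4L2, gave 0.14 ± 0.13, −0.17 ± 0.13 and 0.53 ± 0.13 at days 3, 6 and 9 (adjusted p = 0.39, 0.32 and 0.0014).

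HCLS1 (chr3:121631399-121660903, minus strand) encodes a cortactin-like actin-binding protein of blood cells that is phosphorylated by kinases of the SRC family. HCLS1 stood at 15.5, 14.9 and 17.2 CPM in the 3 parental libraries without doxycycline and at 11.3, 9.86 and 10.2 CPM in the 3 with it. HCLS1 in the deleted line was at 2.28, 2.14 and 1.98 CPM on the drug, 1.76, 1.85 and 2.37 on day 3, 3.16, 2.58 and 3.03 on day 6 and 2.898, 4.36 and 2.29 on day 9. No library of the deleted line reached a parental one. The difference was −2.99 ± 0.18 on day 3 (adjusted p = 5.2e-10), −2.44 ± 0.18 on day 6 (adjusted p = 1.1e-08) and −2.32 ± 0.18 on day 9 (adjusted p = 2.4e-09). Its more widely expressed relative CTTN, cortactin, was slightly lower at each day (−0.28 ± 0.05, −0.23 ± 0.05 and −0.15 ± 0.05 at days 3, 6 and 9, adjusted p = 0.00024, 0.0025 and 0.022), a day 9 call lost in 4 fits without 1 library (−0.10 to −0.14). The kinase LYN gave 0.18 ± 0.06, −0.03 ± 0.06 and −0.13 ± 0.06 at days 3, 6 and 9 (adjusted p = 0.013, 0.76 and 0.065). Of 12 haematopoietic markers, PTPRC, SPI1, GATA1, ITGAM, LAPTM5 and MPO were below 0.1 CPM in every library. The summed list, which was mostly LYN, ran at 51.98 to 52.8 CPM in the parental libraries without doxycycline and 65.1 to 65.7 with it. The deleted line had 53.4 to 58.03 CPM on the drug, 54.4 to 56.3 on day 3, 46.1 to 50.7 on day 6 and 44.5 to 48.4 on day 9. Of 5 tested, 3 passed higher and 2 lower at day 3, 1 and 1 at day 6, and 2 and 2 at day 9. The part of these markers in the HCLS1 difference was not tested.

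MOBP (chr3:39467680-39529497, plus strand), a gene for a structural protein of central nervous myelin, was the exception. MOBP stood at 21.5, 22.05 and 25.2 CPM in the 3 parental libraries without doxycycline and at 50.2, 52.5 and 54.2 CPM in the 3 with it. MOBP in the deleted line was at 10.5, 11.2 and 10.9 CPM on the drug, 19.8, 22.98 and 23.7 on day 3, 8.61, 6.39 and 7.55 on day 6 and 34.3, 53.8 and 17.995 on day 9. The parental level itself differed by doxycycline, with the libraries without it all below those with it (−1.19 ± 0.23, not tested). Against the parental libraries without doxycycline MOBP was −0.05 ± 0.23 on day 3 (adjusted p = 0.88), lower at day 6 (−1.61 ± 0.24, adjusted p = 3.9e-05) and higher at day 9 (0.63 ± 0.23, adjusted p = 0.023). The day 9 libraries spread widely and overlapped the parental ones, and without day 9 replicate 2, the highest, the value was 0.19 (adjusted p = 0.37); without day 9 replicate 3, the lowest of the day, it was 0.94 (adjusted p = 1.2e-05). Within the deleted line MOBP fell from day 3 to day 6 (−1.56 ± 0.24, adjusted p = 3.5e-05) and rose from day 6 to day 9 (2.24 ± 0.24, adjusted p = 1.9e-07). MBP, the major myelin protein gene, gave −0.43 ± 0.11, 0.03 ± 0.11 and −1.01 ± 0.11 at days 3, 6 and 9 (adjusted p = 0.0032, 0.89 and 2.9e-07). The oligodendrocyte markers MAG, SOX10 and CLDN11 were below 0.1 CPM in every library, and the 10 listed markers, mostly CNP, summed to 160.2 to 178 CPM in the parental libraries without doxycycline and 179 to 191 with it. The deleted line had 185 to 193 CPM on the drug, 179.9 to 183 on day 3, 173 to 189.9 on day 6 and 181 to 248 on day 9. Of 6 tested, 1 passed higher and 1 lower at day 3, 2 and 0 at day 6, and 2 and 1 at day 9. Their part in the MOBP values was not tested.

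Per length of transcript the members covered a wide range. As CPM per kilobase of exon (RPKM) at day 6, GRIA2 averaged 12.8 ± 0.799 (SD, n = 3), MMP2 5.86 ± 0.174, PTN 5.61 ± 0.203, PDGFRA 5.196 ± 0.118 and ASTN1 2.59 ± 0.209. In the parental line without doxycycline BMP2 stood at 8.897 ± 1.57 RPKM and HCLS1 at 7.96 ± 0.587. GRIA2 at 2.76 ± 0.375 and MOBP at 2.64 ± 0.2301 differed by less than their SDs there, and ASTN1 was lowest at 0.0237 ± 0.00829. Some of the higher genes were thus close to silent in the parental line. Others, such as GRIA2 and PDGFRA, were already expressed there.

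Changes between days differed among the members. Of the 10, 6 passed between days 3 and 6 (42.7% of all genes did), 8 between days 6 and 9 (58.8%) and 6 between days 3 and 9 (29.8%), counts that have to be read against these shares. By direction, 4 rose and 2 fell from day 3 to day 6 (21.9% and 20.8% of all genes), 2 rose and 6 fell from day 6 to day 9 (28.6% and 30.2%), and 2 rose and 4 fell from day 3 to day 9 (14.8% and 15.0%). From day 6 to day 9 ASTN1 (−0.75), SYNDIG1 (−1.43), GRIA2 (−1.49), PDGFRA (−0.71 ± 0.07, adjusted p = 1e-07), MMP2 (−0.71) and BMP2 (−1.63) fell, and PTN (0.80) and MOBP (2.24) rose (edgeR, adjusted p at most 1.6e-05). HCLS1 rose from day 3 to day 6 (0.55 ± 0.18, adjusted p = 0.02), a call that did not hold without day 3 replicate 1 or 2 or day 6 replicate 1 or 3 (0.46 to 0.52). DHRS2 did not pass in any of the 3. Between day 3 and day 9, ASTN1, SYNDIG1, GRIA2 and PDGFRA were lower at day 9, and HCLS1 and MOBP were higher, with 0.67 and 0.68; without day 9 replicate 2 these 2 values were 0.38 (adjusted p = 0.073) and 0.24 (adjusted p = 0.35).

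Without doxycycline in the parental line, the members also moved, which is described and not tested because the 3 libraries with doxycycline helped to choose them. SYNDIG1 (1.31 ± 0.29), MMP2 (0.80 ± 0.11), GRIA2 (0.70 ± 0.12), HCLS1 (0.60 ± 0.17), PDGFRA (0.45 ± 0.07) and BMP2 (0.42 ± 0.13) were higher without doxycycline, with no overlap. DHRS2, MOBP (−1.19 ± 0.23) and PTN (−0.79 ± 0.14) were lower with no overlap, and ASTN1 overlapped (−0.25 ± 0.22). In the deleted line, day 9 minus doxycycline gave −1.69 for SYNDIG1, −1.31 for GRIA2, −0.91 for BMP2 and 1.70 for MOBP. The narrower SYNDIG1 and DHRS2 differences without doxycycline came with shifts in both lines. Parental levels were closer to the deleted line (1.31 for SYNDIG1, −1.49 for DHRS2). Against doxycycline, the deleted line gave −0.49, −0.26 and −1.69 for SYNDIG1 at days 3, 6 and 9. For DHRS2 it gave 1.18, 0.55 and 1.11, which was not tested. Its libraries overlapped those on the drug except for SYNDIG1 at day 9 and DHRS2 at day 3.

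Other genes of the members' pathways were read from lists, by counts and medians beside a median over all genes of −0.01, −0.01 and −0.02 (log2) at days 3, 6 and 9. Members are left out of the counts. Of the AMPA receptor list, 19 of 26 were tested, and 4 passed higher and 5 lower at day 3, 8 and 3 at day 6, and 4 and 9 at day 9. Medians of these 19 were −0.16, 0.22 and −0.28. CNIH3, a cornichon protein that binds AMPA receptors, was higher at all days (1.10 ± 0.15, 1.35 ± 0.15 and 0.73 ± 0.15 at days 3, 6 and 9, adjusted p = 7.8e-06, 1.9e-06 and 0.00034), while CNIH4 (−0.70 ± 0.08, −0.73 ± 0.08 and −0.53 ± 0.08) and CNIH1 (−0.56 ± 0.08, −0.58 ± 0.08 and −0.54 ± 0.08) were lower. SYNDIG1L gave −0.12 ± 0.45, 0.00 ± 0.45 and −0.28 ± 0.45 at days 3, 6 and 9 (adjusted p = 0.85, 1.0 and 0.62). Of the adhesion list with the astrotactins, 16 of 19 were tested, and 3 passed higher and 4 lower at day 3, 6 and 4 at day 6, and 4 and 7 at day 9. Medians of these 16 were −0.03, 0.12 and −0.23. With the span trend removed the medians of days 3 and 6 took the other sign (0.04 and −0.01). CADM1 (−5.22 ± 0.32, −2.59 ± 0.26 and −5.44 ± 0.33 at days 3, 6 and 9, adjusted p = 5.1e-10, 5.5e-07 and 1.2e-10) and CNTN1 (−1.43 ± 0.09, −0.76 ± 0.09 and −2.46 ± 0.09), both cell adhesion molecules, were lower. Without day 9 replicate 3 the day 9 value of CADM1 was −6.19.

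Of a list of midkine, receptors of pleiotrophin and midkine and other receptor genes, 13 of 14 were tested, and 6 passed higher and 2 lower at day 3, 5 and 0 at day 6, and 8 and 2 at day 9. Medians of these 13 were 0.27, 0.26 and 0.64. The median was above 0 at each day under each scaling tried. MDK, PTPRB (1.29 ± 0.26, 0.84 ± 0.26 and 1.69 ± 0.26 at days 3, 6 and 9, adjusted p = 0.00042, 0.017 and 1.4e-05), a receptor phosphatase other than PTPRZ1, and SDC1 (0.99 ± 0.09, 0.56 ± 0.09 and 1.06 ± 0.09 at days 3, 6 and 9, adjusted p = 1.3e-07, 0.00013 and 1.6e-08), the proteoglycan syndecan, passed higher at all 3 days. For PDGF ligands and related receptors, 13 of 14 were tested, and 2 passed higher and 5 lower at day 3, 4 and 2 at day 6, and 1 and 5 at day 9. Medians of these 13 were −0.42, 0.27 and −0.34. KIT, the receptor of stem cell factor, was lower (−1.03 ± 0.09, −0.37 ± 0.09 and −1.68 ± 0.10 at days 3, 6 and 9, adjusted p = 7.8e-08, 0.0045 and 7.6e-11). FLT1, a receptor of VEGF, was lower too (−1.18 ± 0.08, −0.28 ± 0.07 and −1.34 ± 0.08 at days 3, 6 and 9, adjusted p = 8.2e-10, 0.0063 and 6.7e-11). NRP2, a neuropilin, was higher (0.34 ± 0.09, 0.26 ± 0.09 and 0.81 ± 0.09 at days 3, 6 and 9, adjusted p = 0.0053, 0.039 and 5.4e-07). Among matrix metalloproteinases and inhibitors, 13 of 22 were tested, and 2 passed higher and 4 lower at day 3, 4 and 1 at day 6, and 4 and 6 at day 9. Medians of these 13 were −0.05, 0.15 and −0.30. The day 3 median was 0.07 with the span trend removed. MMP24 (1.24 ± 0.15, 0.78 ± 0.15 and 1.80 ± 0.15 at days 3, 6 and 9, adjusted p = 2.1e-06, 0.00055 and 7.6e-09) and the inhibitor TIMP3 (0.57 ± 0.18, 0.58 ± 0.18 and 1.88 ± 0.18 at days 3, 6 and 9, adjusted p = 0.012, 0.017 and 3.7e-08) passed higher at all days. With doxycycline the means had the other order for SDC1 (72.2 CPM in the deleted line, 73.7 in the parental line), MMP24 (4.195 and 4.704) and TIMP3 (2.5002 and 3.205). Leaving out 1 library ended the day 6 calls of PTPRB (parental no doxycycline replicate 1 or day 6 replicate 3), NRP2 (7 libraries, 0.23 to 0.27) and TIMP3 (parental no doxycycline replicate 3, 0.50, adjusted p = 0.065), and the day 3 call of TIMP3 (the same library, 0.49, adjusted p = 0.051).

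In the BMP list, 31 of 37 were tested, and 4 passed higher and 12 lower at day 3, 11 and 5 at day 6, and 9 and 18 at day 9. Medians of these 31 were −0.16, 0.16 and −0.31. BMP8A was lower beside BMP7 (−1.73 ± 0.31, −0.92 ± 0.29 and −1.77 ± 0.30 at days 3, 6 and 9, adjusted p = 0.00012, 0.021 and 5.2e-05). In the SRC-family and cortical actin list, 16 of 19 were tested, and 3 passed higher and 9 lower at day 3, 2 and 7 at day 6, and 3 and 7 at day 9. Medians of these 16 were −0.21, −0.13 and −0.14. SYK, a kinase of blood cells, was lower (−1.09 ± 0.20, −3.33 ± 0.23 and −0.97 ± 0.20 at days 3, 6 and 9, adjusted p = 0.00018, 7.3e-09 and 0.00034), and SRC was higher (0.33 ± 0.07, 0.36 ± 0.07 and 0.35 ± 0.07 at days 3, 6 and 9, adjusted p = 0.00073, 0.0006 and 0.00029). Of the DHRS group, 11 of 13 were tested, and 1 passed higher and 4 lower at day 3, 0 and 1 at day 6, and 4 and 4 at day 9. Medians of these 11 were −0.06, −0.01 and −0.27. The sign of the median changed at day 6 with library size alone (0.03) or the span trend removed (0.01) and at day 9 with the latter (0.11). DHRS7 was lower at all days (−0.34 ± 0.08, −0.47 ± 0.08 and −0.31 ± 0.08 at days 3, 6 and 9, adjusted p = 0.0012, 0.00011 and 0.0016). For myelin genes, 8 of 15 were tested, and 1 passed higher and 3 lower at day 3, 0 and 1 at day 6, and 3 and 3 at day 9. Medians of these 8 were −0.22, −0.01 and −0.29. The day 6 median was 0.03 with library size alone. ERMN, ermin, was lower at all days (−0.69 ± 0.11, −1.15 ± 0.12 and −0.80 ± 0.11 at days 3, 6 and 9, adjusted p = 6.3e-05, 5.8e-07 and 6.1e-06). Among these list genes, calls at day 6 were lost for BMP8A without parental no doxycycline replicate 1 or 2 or day 6 replicate 2 or 3 (−0.81 to −0.89, adjusted p = 0.067 to 0.071). With doxycycline BMP8A averaged 0.888 CPM in the deleted line and 0.794 in the parental line, the other order.

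Genes near the members were examined at each locus. Within 1 Mb of the 10 genes 177 others were tested. ACIN1 near DHRS2, with a day 6 adjusted p that rounds to 0.05, is counted only at its locus. Without it 25 of the 177 (14.1%) passed in one direction at all 3 days, close to the 15.6% of all genes. Around ASTN1, 0 of 7 did so, and LINC02803 had the largest mean difference there (2.71 ± 0.68, −0.69 ± 0.88 and 1.97 ± 0.70 at days 3, 6 and 9, adjusted p = 0.0028, 0.59 and 0.02), a day 9 call lost without parental no doxycycline replicate 1 or day 9 replicate 3 (1.73 and 1.61). Around SYNDIG1 1 of 12 did so, lower and thus opposite to SYNDIG1, and LOC101926889 led with −0.54 ± 0.47, −0.94 ± 0.48 and −1.57 ± 0.50 at days 3, 6 and 9 (adjusted p = 0.35, 0.14 and 0.011), a day 9 call lost without day 9 replicate 3 (−1.31, adjusted p = 0.051). With doxycycline LINC02803 averaged 0.0358 CPM in the deleted line and 0.110 in the parental line. LOC101926889 averaged 0.228 and 0.159 CPM there, so both had the other order than at the days that passed. PTN had 1 of 5, LOC124901754 (1.77 ± 0.44, 1.90 ± 0.43 and 2.19 ± 0.43 at days 3, 6 and 9, adjusted p = 0.0024, 0.0022 and 0.0002), at 0.0759 to 0.352 CPM. Near GRIA2, 2 of 7 passed, 1 in each direction, and GLRB, a glycine receptor subunit gene, was lower (−0.71 ± 0.08, −0.56 ± 0.08 and −1.49 ± 0.09 at days 3, 6 and 9, adjusted p = 1.5e-06, 4.9e-05 and 9.1e-11). Around PDGFRA, CHIC2 and GSX2 were higher and KIT was lower at all 3 days, among 7 tested. KDR, a VEGF receptor gene at 0.348 CPM or less on average, led with −1.82 ± 0.63, −1.45 ± 0.61 and −2.68 ± 0.68 at days 3, 6 and 9 (adjusted p = 0.023, 0.077 and 0.0021). Without doxycycline PDGFRA was thus higher and KIT lower than in the parental line. With doxycycline KIT averaged 15.97 CPM in the deleted line and 14.7 in the parental line. The day 6 call of CHIC2 was lost without parental no doxycycline replicate 3 (0.29, adjusted p = 0.056) or day 6 replicate 2 (0.53, adjusted p = 0.053). The day 9 call of GSX2 (0.99, adjusted p = 0.046) was lost with library size alone, DESeq2 or the span trend removed (0.82 to 1.01), and in 12 of the fits that left out 1 library (0.67 to 1.01). The day 3 call of KDR was lost without parental no doxycycline replicate 1 or day 3 replicate 1 or 3 (−1.48 to −1.71), and its value was −2.55 without day 3 replicate 2. With doxycycline KDR averaged 0.129 CPM in the deleted line and 0.105 in the parental line, the other order.

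Near MMP2, 1 of 14 passed at all days, and CES1, a carboxylesterase gene at or below 0.174 CPM on average, led (1.02 ± 1.15, 2.95 ± 0.99 and 2.74 ± 0.99 at days 3, 6 and 9, adjusted p = 0.49, 0.026 and 0.023). Its 5 parental counts without doxycycline were all in replicate 3, and without parental replicate 1 or 2 neither day 6 nor day 9 passed (2.22 to 2.42). Without parental replicate 3, which leaves no parental count in that group, CES1 gave 6.77 and 6.56 at days 6 and 9. Its day 6 call was also lost without day 6 replicate 2 (2.51), and its day 9 call without day 9 replicate 3 (2.56). The size of the CES1 difference thus rests on that 1 parental library. DHRS2 lies in a dense region with 73 tested neighbours, of which 6 were lower with it and 4, including ACIN1, higher at all 3 days. MMP14 is among those lower, and REM2 had the largest mean difference (−5.42 ± 0.63, −0.32 ± 0.42 and −5.40 ± 0.62 at days 3, 6 and 9, adjusted p = 1.2e-06, 0.61 and 3.8e-07), at −6.02 without day 3 replicate 1 and −6.96 without day 9 replicate 3. With doxycycline REM2 had the other order, at 0.406 CPM in the deleted line and 0.0938 in the parental line on average. For REM2 the parental line without doxycycline averaged 1.52 CPM, and the deleted line 0.0348, 1.21 and 0.0334 CPM at days 3, 6 and 9. Days 3 and 9 lay near the floor of 3 counts per library (0.034 and 0.0315 CPM), so the size of these folds is uncertain. Around BMP2, 1 of 9 passed, CHGB, chromogranin B, which was higher (2.99 ± 0.43, 1.52 ± 0.46 and 4.37 ± 0.42 at days 3, 6 and 9, adjusted p = 1.3e-05, 0.015 and 4.4e-08). Without parental no doxycycline replicate 1 its values were 3.93, 2.45 and 5.31, and the day 6 call was lost without parental replicate 2 or 3 or day 6 replicate 3 (1.08 to 1.37). Near HCLS1, 3 of 19 were lower and 1 higher. Of these ARGFX, a homeobox gene, had 0 counts in all 12 libraries of the deleted line and 10 to 23 counts per library in the parental line without doxycycline. Against a floor of 3 counts per library ARGFX was at least 5.85-fold, 6.07-fold and 6.31-fold lower at days 3, 6 and 9. Around MOBP, 3 of 24 passed in one direction, led by LOC107986075 (2.40 ± 0.28, 0.93 ± 0.29 and 1.90 ± 0.28 at days 3, 6 and 9, adjusted p = 1.3e-06, 0.018 and 9.4e-06). Its day 6 call was lost without parental no doxycycline replicate 1 or day 6 replicate 2 or 3 (0.68 to 0.85), and with doxycycline it averaged 0.612 CPM in the deleted line and 0.723 in the parental line.

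**Figure D3:**
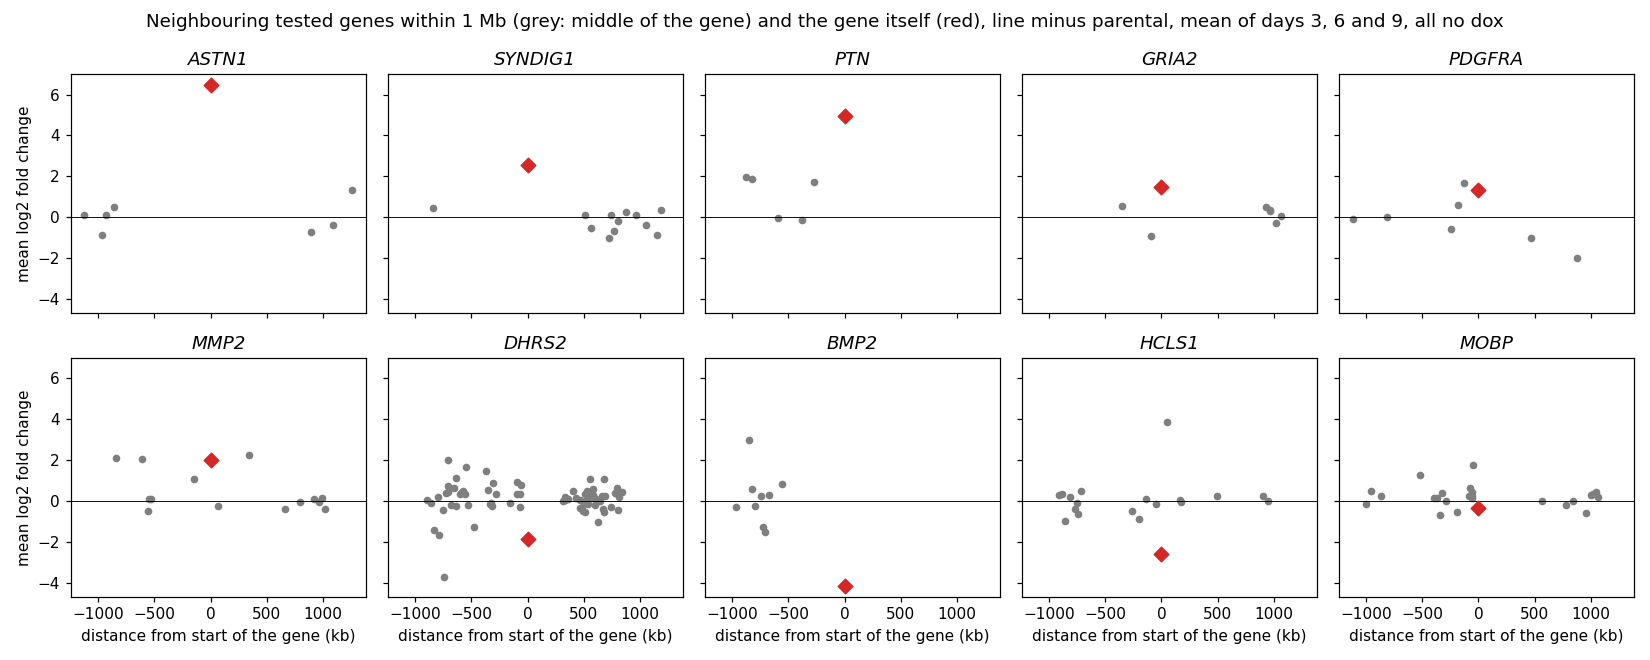
Mean log2 fold change over days 3, 6 and 9 (deleted against parental line, no doxycycline) of each member and of the tested genes within 1 Mb, against distance from the member's start; ARGFX, with 0 counts in the deleted line, is left out. Most neighbours lie near 0, with locus medians of −0.10 to 0.30 except 1.73 at PTN, where 5 genes were tested.

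MIR488, LOC105375527, LOC124900235, RNU4-62P and RN7SL172P overlap ASTN1, PTN or HCLS1, and none was above 0.0394 CPM in any library, in counts whose strand setting is not known.

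The genes whose levels followed each member most closely were found by Pearson's r of log2(CPM + 0.1) over the 18 libraries, among genes averaging at least 1 CPM. These values describe libraries that share 2 lines and 6 groups. For SYNDIG1 they were CNIH3 (0.979), PDGFRA (0.972) and GRIA2 (0.959), and within the 12 libraries of the deleted line r was 0.826, 0.810 and 0.859. GRIA2 was followed by COMP (0.979), PTPN3 (0.971) and CNIH3 (0.964), with 0.952, 0.919 and 0.945 within the deleted line. PDGFRA was followed by SCUBE3 (0.977), SYNDIG1 (0.972) and MMP2 (0.967), and MMP2 by TRPM3 (0.972), SYT17 (0.968) and PDGFRA (0.967). ASTN1 was followed by TMEM132E (0.988), SCN2B (0.986) and FRMD4A (0.980), but within the deleted line r was only 0.0380, 0.506 and 0.370, so there the likeness lay mainly between the lines. PTN had FRMD4A (0.986), GASK1A (0.986) and CD200 (0.983).

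Among the lower genes, BMP2 was followed by EDIL3 (0.989), CADM1 (0.984) and PLAAT3 (0.974), with r of 0.918, 0.902 and 0.875 within the deleted line. DHRS2 had LOC124904632 (0.955), ACADL (0.953) and RUNX1 (0.939), and HCLS1 had PRXL2A (0.975), FOXI3 (0.971) and CCDC122 (0.969). MOBP was followed by RAB15 (0.974), TRIM21 (0.938) and SLC1A3 (0.935), and r was as high within the deleted line, at 0.972, 0.915 and 0.964, so that its likeness lay over days as much as between lines. The likeness of 4 members to each other (SYNDIG1, PDGFRA, GRIA2 and MMP2) follows in part from their choice on the same line difference.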

How the data were processed

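RNA of 18 HAP1 libraries in 6 groups of 3 was extracted with Trizol and chloroform and a column kit and sequenced as read pairs with Illumina NovaSeq chemistry, per the labels' protocols. The authors deposited raw read counts per gene, whole numbers with no normalization, with GRCh38 coordinates, per the file headers. Per the submitters' processing notes, the tools included HISAT2, cutadapt 2.3, featureCounts of Subread, SAMtools and DESeq2, with no role or order stated. The column names carry RF. Not given in the sources used here were annotation release and strand setting. The tables held 59251 genes, 16 records broken over several lines were rejoined, and 6 libraries present in 2 tables were identical and used a single time. The 37 mitochondrial genes held 0 counts in every library.

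Counts were tested with edgeR 4.0.16 (glmQLFit and glmQLFTest) in R 4.3.3 after filterByExpr by group, which left 21615 genes, and TMM scaling, with 1 mean per group over all 18 libraries. P-values were adjusted by Benjamini-Hochberg over all 21615 genes, with calls made at an adjusted p below 0.05. The 6 tests were each day against the parental line, all without doxycycline, and day against day. Contrasts with libraries that chose the members were described only. CPM and RPKM were computed from the deposited counts. Replicates differed by more than counting noise (chi-square per gene 4.97 to 95.0, Spearman's rho 0.987 to 0.995). The fitting script was tested on simulated data. Alternatives were library size alone, DESeq2 1.42.0, no low-count filter, a replicate block, the 12 libraries without doxycycline, removal of the trend of fold change with genomic span (a lowess curve of span 0.3), a prior count of 2 and each library left out.

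The members and lists were chosen with earlier results of these data known. Named besides the members are fixed partners and paralogs, up to 3 genes per list passing in one direction at all 3 days, the neighbour within 1 Mb with the largest mean difference per locus, and the 3 genes most alike in pattern. The other neighbours with values, and day-9 libraries singled out, were chosen after their values were seen. Promoter windows came from RefSeq. Some genes that the rule names are not reported here.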

Additional observations from a re-analysis of the deposited data

Results flagged for a closer look

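Within the deleted line, 20 differences between days for 9 of the 10 genes passed the test between the 2 groups, against 42.7%, 58.8% and 29.8% of all genes for day 6 against day 3, day 9 against day 6 and day 9 against day 3. All values are log2FC. From day 3 to day 6, PTN (−0.86) and MOBP (−1.56) fell, and GRIA2 (0.82), MMP2 (0.56), BMP2 (1.97) and HCLS1 (0.55) rose. From day 6 to day 9, ASTN1 (−0.75), SYNDIG1 (−1.43), GRIA2 (−1.49), PDGFRA (−0.71), MMP2 (−0.71) and BMP2 (−1.63) fell, and PTN (0.80) and MOBP (2.24) rose. From day 3 to day 9, ASTN1 (−0.60), SYNDIG1 (−1.21), GRIA2 (−0.67) and PDGFRA (−0.73) were lower, and HCLS1 (0.67) and MOBP (0.68) higher.

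BMP2, GRIA2 and MMP2 were highest at day 6 among the days, and PTN and MOBP were lowest there. SARS2 counts were also lowest at day 6 among the days, and the summed neuronal markers were at 64.6 to 68.9 CPM there, against 112 to 127 at days 3 and 9. Their part in the day differences was not tested.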

How the results depend on the processing

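For the 9 genes other than MOBP, all 675 line differences over 25 settings and 3 days kept their direction and their call, and the counts of genes called stayed within 1.5 times under every alternative run. At day 9 the differences of GRIA2 and PDGFRA, under 2-fold as reported, ranged from 0.56 to 1.03 and from 0.78 to 1.02. The count of genes at least 2-fold at each day thus depended on the setting. MOBP at day 3, never called, took the other sign with the span trend removed (0.058) and without parental no doxycycline replicate 3 (0.025) or day 3 replicate 1 (0.043). MOBP at day 9 lost its call in the 12 libraries without doxycycline (0.63, adjusted p = 0.054), with library size alone (0.56, adjusted p = 0.055), and without parental replicates 1 (0.61) or 2 (0.62) or day 9 replicate 2 (0.19). Between days, uncalled values changed sign for PDGFRA from day 3 to day 6 with library size alone (0.045), for ASTN1 there (−0.10) and PTN from day 3 to day 9 (0.073) with the span trend removed, for HCLS1 from day 6 to day 9 without day 9 replicate 2 (−0.17, to 0.31 without replicate 3), for DHRS2 there without day 9 replicate 3 (−0.14, to 0.93 without replicate 2), and for DHRS2 from day 3 to day 9 without day 3 replicate 3 (0.034), day 9 replicate 1 (0.04) or day 9 replicate 2 (0.30, down to −0.77 without day 9 replicate 3). The cause was not tested. With the span trend removed ASTN1 lost its day 9 calls against day 6 (−0.16) and day 3 (−0.27), and the MOBP rise from day 3 to day 9 was lost in 7 of its settings, at 0.24 to 0.73. DHRS2 passed from day 3 to day 6 (−0.64) and from day 6 to day 9 (0.57) with no low-count filter. Without day 9 replicate 2, DHRS2 passed from day 6 to day 9 (0.93, adjusted p = 0.015) and MMP2 from day 3 to day 9 (−0.29, adjusted p = 0.028).

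With each library left out in turn, genes called ranged from 9032 to 11428 at day 3, 5688 to 8366 at day 6 and 12148 to 13247 at day 9. Library size alone lowered the share of higher calls from 48.7% to 38.6% for day 9 against day 6 and from 49.8% to 34.9% for day 9 against day 3, raised it from 51.3% to 59.7% for day 6 against day 3 and from 46.3% to 53.6% for day 6 against the parental line, and moved the median of all genes at day 9 to −0.11 against the parental line. Replicate numbers did not pair the samples: 0 of 45 same-numbered pairs deviated together with r over 0.1 (−0.08 to 0.07). The replicate block gave 10403, 7166 and 12936 genes called at days 3, 6 and 9 and changed no call of a member. Depth limits ASTN1 in the parental line, where 14 counts in 1 library was the lowest count behind any value of a member.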
